A study of Mus musculus with 7 samples.

Results

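Paxip1 and the genes of the KMT2C/KMT2D histone methyltransferase complex were examined in mouse prefrontal cortex (PFC) by RNA-seq. The members were the 10 protein-coding genes Paxip1, Pagr1a, Kmt2c, Kmt2d, Kdm6a, Ncoa6, Rbbp5, Ash2l, Wdr5 and Dpy30, taken by symbol from a table of 55416 genes, of which 21885 were protein-coding. Of the 10, 9 had enough counts to be tested, among 17254 genes tested in all, and Pagr1a did not. Paxip1 is of interest here because its human counterpart lies beside PAXIP1-AS1, the human long non-coding RNA that was overexpressed in these mice.

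The mice were wild-type C57BL/6 females whose PFC had been injected with a recombinant adeno-associated virus (AAV). The 3 control libraries (Ctr) came from mice given the empty vector, the 2 Ref libraries from mice given PAXIP1-AS1 with the reference C allele, and the 2 Alt libraries from mice given PAXIP1-AS1 with the alternative G allele. In each vector the human synapsin promoter drove expression in neurons together with EGFP, and the tissue sequenced also held cells that the promoter does not serve. The age of the mice and whether each library came from a single animal were not given in the sources used here, so p-values measure the spread between these libraries.

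KMT2C and KMT2D place the monomethyl mark on lysine 4 of histone H3 (H3K4) at enhancers, and each works inside a large complex. The core subunits WDR5, RBBP5, ASH2L and DPY30 are shared with the other H3K4 methyltransferases, whereas PAXIP1, PAGR1, NCOA6 and the H3K27 demethylase KDM6A are found with KMT2C and KMT2D. PAXIP1 carries BRCT domains, binds 53BP1 after DNA damage and is needed for H3K4 methylation at some developmental and immune genes, and loss-of-function variants of KMT2D, KMT2C and KDM6A cause human syndromes with intellectual disability.

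The promoters of Paxip1 and of the 4 members that stood apart in Alt are shown first, because these 5 genes carry the results. RefSeq promoter sequences of mouse build GRCm38.p6 were matched by symbol for 9 of the 10 members, all but Ash2l, and gave 12 start sites, since Dpy30 had 4. Each line holds the 250 bases before an annotated start, read 5′ to 3′ on the strand of the gene, with every CG dinucleotide in capitals.
Paxip1 (chr5:27791551-27791800, minus strand): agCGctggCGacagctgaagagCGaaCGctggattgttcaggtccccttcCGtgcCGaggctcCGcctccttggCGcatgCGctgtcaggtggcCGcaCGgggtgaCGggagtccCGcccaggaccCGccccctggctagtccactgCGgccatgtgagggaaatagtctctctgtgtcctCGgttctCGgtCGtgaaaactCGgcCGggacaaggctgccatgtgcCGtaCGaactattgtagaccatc
Kmt2c (chr5:25498784-25499033, minus strand): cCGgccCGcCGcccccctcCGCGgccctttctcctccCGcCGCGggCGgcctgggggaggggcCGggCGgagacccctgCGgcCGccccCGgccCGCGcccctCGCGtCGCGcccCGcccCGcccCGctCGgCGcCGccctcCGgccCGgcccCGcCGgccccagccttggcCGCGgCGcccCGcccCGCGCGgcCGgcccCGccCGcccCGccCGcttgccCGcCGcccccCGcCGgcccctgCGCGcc
Kmt2d (chr15:98871206-98871455, minus strand): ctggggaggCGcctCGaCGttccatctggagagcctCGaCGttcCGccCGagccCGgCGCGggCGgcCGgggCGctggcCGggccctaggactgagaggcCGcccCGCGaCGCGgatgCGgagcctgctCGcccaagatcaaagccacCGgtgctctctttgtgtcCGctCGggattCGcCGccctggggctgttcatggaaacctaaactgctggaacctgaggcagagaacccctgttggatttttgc
Kdm6a (chrX:18162325-18162574, plus strand): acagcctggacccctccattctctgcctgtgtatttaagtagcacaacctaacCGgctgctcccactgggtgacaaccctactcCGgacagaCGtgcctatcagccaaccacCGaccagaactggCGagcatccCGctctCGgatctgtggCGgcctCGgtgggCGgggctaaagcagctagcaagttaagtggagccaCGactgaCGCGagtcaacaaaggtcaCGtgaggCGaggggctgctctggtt
Ncoa6 (chr2:155440784-155441033, minus strand): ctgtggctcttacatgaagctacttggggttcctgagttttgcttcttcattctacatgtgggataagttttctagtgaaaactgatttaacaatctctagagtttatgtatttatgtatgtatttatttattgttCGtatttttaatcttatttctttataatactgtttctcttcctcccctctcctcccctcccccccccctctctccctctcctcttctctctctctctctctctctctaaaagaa

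CG dinucleotides are dense at many broadly used promoters. The Kmt2c window held 48 of them, more than 99.8% of the 32841 windows of this length in the table, and that of Kmt2d held 26. Paxip1 had 22 and Kdm6a 15, against a median of 6 over the 32841 windows. Ncoa6 had 1, which put it below most windows, although Ncoa6 and Kmt2c were both among the members higher in Alt. Whether the annotated starts matched by symbol are those used in PFC was not tested. The study connects PAXIP1-AS1 with the repressor ZGPAT, and the 4 spellings of its motif, GGAGAAAA, GGAGAAGA, GGAGGAAA and GGAGGAGA, were searched on both strands. Of the 12 windows 3 held a match, compared with 9.92% of the 32841 windows. The spelling GGAGGAGA lay on the opposite strand at position 30 of the Kmt2c window and at position 184 of the Ncoa6 window, counted from the first base printed, and Rbbp5 had a match on each strand. A match is a description of these letters and not of a binding site.

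The libraries held between 16655697 and 20750857 counts, and Alt replicate 1 was the shallowest. Levels are given as CPM (counts scaled to a common library size) after TMM normalization, in which the total of each library is corrected for composition. Alt replicate 1 stood apart: its median log2 difference from the Ctr mean was 0.54 over the longest length decile of genes and -0.55 over the shortest decile, against 0.19 and -0.17 in Alt replicate 2 and values between -0.13 and 0.12 for either class in the other 5 libraries. Neuronal and forebrain markers were present in all libraries, and of the 6 markers of cerebellum, choroid plexus and retina only Kl passed 18 counts in any library, with 37 to 98. Summed oligodendrocyte markers lay between 2508 and 3367 CPM in Ref, above the 1535 to 2352 of Ctr and the 1625 to 2195 of Alt, and 5 of the 6 were higher in Ref than in Ctr at an unadjusted p under 0.05. Summed endothelial markers lay between 272 and 321 CPM in Alt, between 243 and 286 in Ref and between 180 and 236 in Ctr. Kdr and Flt1 were higher in Alt than in Ctr at an unadjusted p under 0.05 (log2 fold changes of 0.83 and 0.56). Flt1 was also higher in Ref than in Ctr (0.39) by this measure. Summed microglial markers lay between 337 and 339 CPM in Alt, 351 and 352 in Ref and 292 and 335 in Ctr. Of the remaining markers Slc17a7 (neurons, 0.32) and Cx3cr1 (microglia, 0.36) were higher in Alt than in Ctr at an unadjusted p under 0.05. Neurod6 (forebrain neurons, -0.65), Mag (oligodendrocytes, -0.38) and C1qa (microglia, -1.09) were lower, and none of the 5 astrocyte markers passed. In a fit corrected for gene length Flt1 (0.20) and Mag (-0.28) no longer passed, while Snap25 (-0.38) and Gad1 (-0.49) passed as lower. The part of these cell types in the results below was not tested. In bulk tissue a change in the number of cells of a type cannot be told apart from a change in RNA per cell.

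In Ctr cortex the members were expressed at moderate levels. Levels of different genes were compared in the deposited TPM, which divides by gene length. Rbbp5, the core subunit that joins the methyltransferase to ASH2L, led with 37.8 ± 4.61 TPM (SD, n = 3), followed by Ncoa6 with 25.4 ± 3.39 and Dpy30 with 24.9 ± 10.7. Kdm6a and Wdr5 followed at 19.2 ± 3.61 and 19.0 ± 3.41 TPM. Kmt2d stood at 15.0 ± 3.19, Kmt2c at 14.4 ± 3.49, Paxip1 at 14.1 ± 2.99 and Ash2l at 11.7 ± 0.555 TPM. The median over tested protein-coding genes was 13.8 TPM, so that both methyltransferases and Paxip1 lay near the middle of expressed genes. Among neighbours in this order the Ctr libraries of Rbbp5 and Ncoa6 did not overlap, and every other neighbouring pair did.

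**Figure D1:**
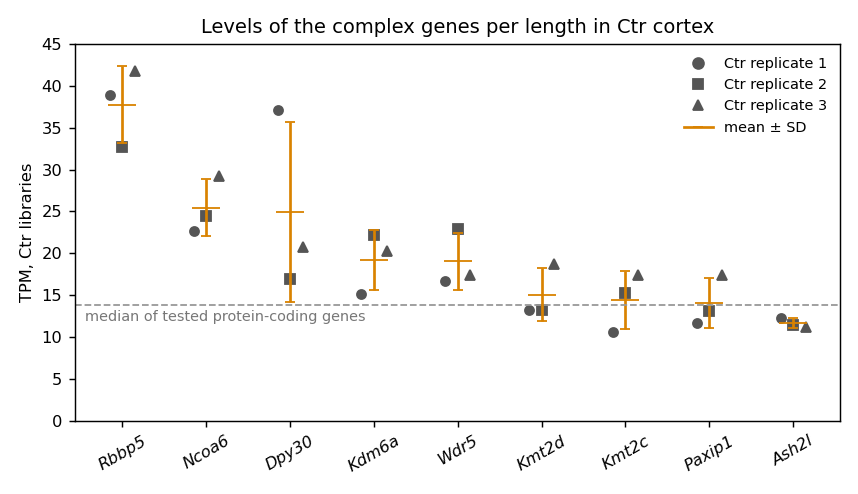
Level of each tested member in the 3 Ctr libraries in TPM, ordered by mean, with bars for mean ± SD and a dashed line at the median of tested protein-coding genes. Rbbp5 stood above the rest at 37.8 TPM, while Kmt2d, Kmt2c, Paxip1 and Ash2l lay between 11.7 and 15.0.

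The 2 methyltransferase transcripts were set against each other. The TPM ratio of Kmt2c to Kmt2d was 0.964 ± 0.176 in Ctr (SD, n = 3), 0.968 ± 0.111 in Ref (n = 2) and 0.952 ± 0.0234 in Alt (n = 2). The groups differed by less than the spread between Ctr libraries, and in each group the mean ratio was close to 1.

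Whether either allele of PAXIP1-AS1 altered the mouse gene at the corresponding place was asked first. Paxip1 (chromosome 5, 27945078 to 27996689 on the minus strand as the deposited table lists it) was at 35.6, 40.2 and 50.0 CPM in Ctr, 43.1 and 48.4 in Ref and 45.3 and 46.0 in Alt. Both Ref and both Alt libraries lay inside the range of the Ctr libraries. The log2 fold change was 0.12 in Alt against Ctr (95% confidence interval -0.27 to 0.52), 0.13 in Ref against Ctr (-0.27 to 0.52) and -0.00 in Alt against Ref (-0.44 to 0.43), and the adjusted p of edgeR's quasi-likelihood test with Benjamini-Hochberg adjustment was 0.765, 1 and 0.997. An increase beyond 0.52 on the log2 scale lay outside the interval for either allele against Ctr. Leaving out each library in turn gave 0.02 to 0.27 for either allele against Ctr. Over the order Ctr, Ref, Alt the slope was 0.0725 log2 units per step, with p = 0.390 in a two-sided exact permutation test over 210 arrangements, which could reach 0.00476.

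Genes around Paxip1 gave no call. Within 500000 bases lay 6 protein-coding genes, of which 3 were tested. Dpp6, which encodes an auxiliary subunit of neuronal potassium channels and lies 12575 bases from Paxip1, had a log2 fold change of 0.09 ± 0.15 (SE) in Alt and -0.01 ± 0.15 in Ref, both against Ctr. Htr5a, a serotonin receptor gene, gave -0.02 ± 0.21 and -0.00 ± 0.21, and Insig1, a regulator of sterol synthesis, gave -0.13 ± 0.16 and 0.12 ± 0.16. With length offsets the sign turned in Alt against Ctr for Dpp6 (-0.25) and Insig1 (0.07). None of these 3 genes reached an unadjusted p of 0.05 in any of the 3 comparisons, the smallest being 0.175 for Insig1 in Alt versus Ref. Speer4b had 6 counts in all libraries together, En2 had 38 and Cnpy1 had 0.

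Pagr1a, whose product binds PAXIP1 directly, could not be followed. It had 1 count in Ctr replicate 1 and 0 in the other 6 libraries, at or under the floor of 3 counts. In the table Pagr1a (chromosome 7, 126614205 to 126616524, minus strand) overlaps Pagr1b, a gene with 0 counts, and the protein-coding Gm42742 on the same strand, with 229 counts in all libraries. Reads on the shared bases fit more than 1 of these genes, and how they were counted is not given in the sources used here, so the low count cannot be read as the level of its transcript.

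The comparison of Alt with Ctr set 4 members apart. Kmt2c, Kmt2d, Kdm6a and Ncoa6, the methyltransferases, the demethylase and the nuclear receptor coactivator of the complex, were higher in Alt at an unadjusted p under 0.05, and no member was lower. Over all 17254 genes 9.45% were higher and 10.3% lower by this measure. No member passed an adjusted p of 0.05 in the edgeR fit, nor did any other gene, a share of 0% of all genes tested, although DESeq2 called Kmt2c, Kmt2d and Ncoa6 (adjusted p = 0.0203, 0.0107 and 0.00357) among 1123 genes in all. In CPM the same 4 members were those in which both Alt libraries lay above the 3 Ctr libraries, as was true of 16.8% of all genes, and no member had both Alt libraries below, as 18.1% of all genes did. In the deposited TPM Ncoa6 alone was separated upward, with 42.3 and 38.1 in Alt against at most 29.2 in Ctr, as 10% of all genes were. Alt replicate 2 lay below the highest Ctr library in TPM for Kmt2c (16.4 against 17.5), Kmt2d (17.5 against 18.7) and Kdm6a (21.5 against 22.1), and likewise in the deposited FPKM. Wdr5 was separated downward in TPM, with 12.4 and 15.6 in Alt against at least 16.7 in Ctr, as 23.7% of all genes were. In FPKM Wdr5 (3.29 and 4.80 against at least 5.07) and Ash2l (3.02 and 2.71 against at least 3.26) were separated downward, as were 26.3% of all genes. The median log2 fold change over the 9 tested members was 0.12, compared with -0.03 over all genes.

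Kmt2c was at 64.1, 92.5 and 99.1 CPM in Ctr, 88.9 and 110 in Ref and 201 and 107 in Alt. Alt replicate 1 was far above every other library, while Alt replicate 2 lay just above the highest Ctr library and below Ref replicate 2. The log2 fold change for Alt versus Ctr was 0.85 ± 0.25 (SE; unadjusted p = 0.00594, adjusted p = 0.127, edgeR). Leaving out Alt replicate 1 brought it to 0.33.

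Kmt2d, the partner methyltransferase, followed the same pattern. It was at 78.1, 78.8 and 105 CPM in Ctr, 98.2 and 104 in Ref and 204 and 112 in Alt. Alt replicate 1 was again far above the rest, and Alt replicate 2 was above the highest Ctr and Ref libraries by less than the spread of Ctr. The log2 fold change was 0.86 ± 0.23 (SE; unadjusted p = 0.00273, adjusted p = 0.121, edgeR), and 0.36 without Alt replicate 1.

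Kdm6a, on the X chromosome, removes methyl groups from H3K27 and is one of the genes that escape X inactivation. Its level was 37.8, 55.4 and 47.7 CPM in Ctr, 36.7 and 45.8 in Ref and 72.9 and 57.8 in Alt. Both Alt libraries were the highest, although Alt replicate 2 was close to Ctr replicate 2. The log2 fold change was 0.48 ± 0.20 (SE; unadjusted p = 0.0334, adjusted p = 0.211, edgeR), and 0.30 without Alt replicate 1.

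Ncoa6, a coactivator of nuclear receptors, differed from these in that both Alt libraries were alike. It was at 65.8, 71.0 and 79.8 CPM in Ctr, 77.5 and 99.3 in Ref and 119 and 119 in Alt. The Alt libraries lay above all others, and the Ref mean of 88.4 ± 15.4 CPM (SD, n = 2) lay between those of Ctr, 72.2 ± 7.04 (n = 3), and Alt, 118.9 ± 0.436 (n = 2). The log2 fold change was 0.72 ± 0.16 (SE; unadjusted p = 0.000766, adjusted p = 0.120, edgeR), a fold of 1.65. When each of the 7 libraries was left out in turn the log2 fold change stayed between 0.66 and 0.80, and without Alt replicate 1 Ncoa6 was the 1 member still past an unadjusted p of 0.05, where 3.68% of all genes were higher and 4.46% lower.

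**Figure D2:**
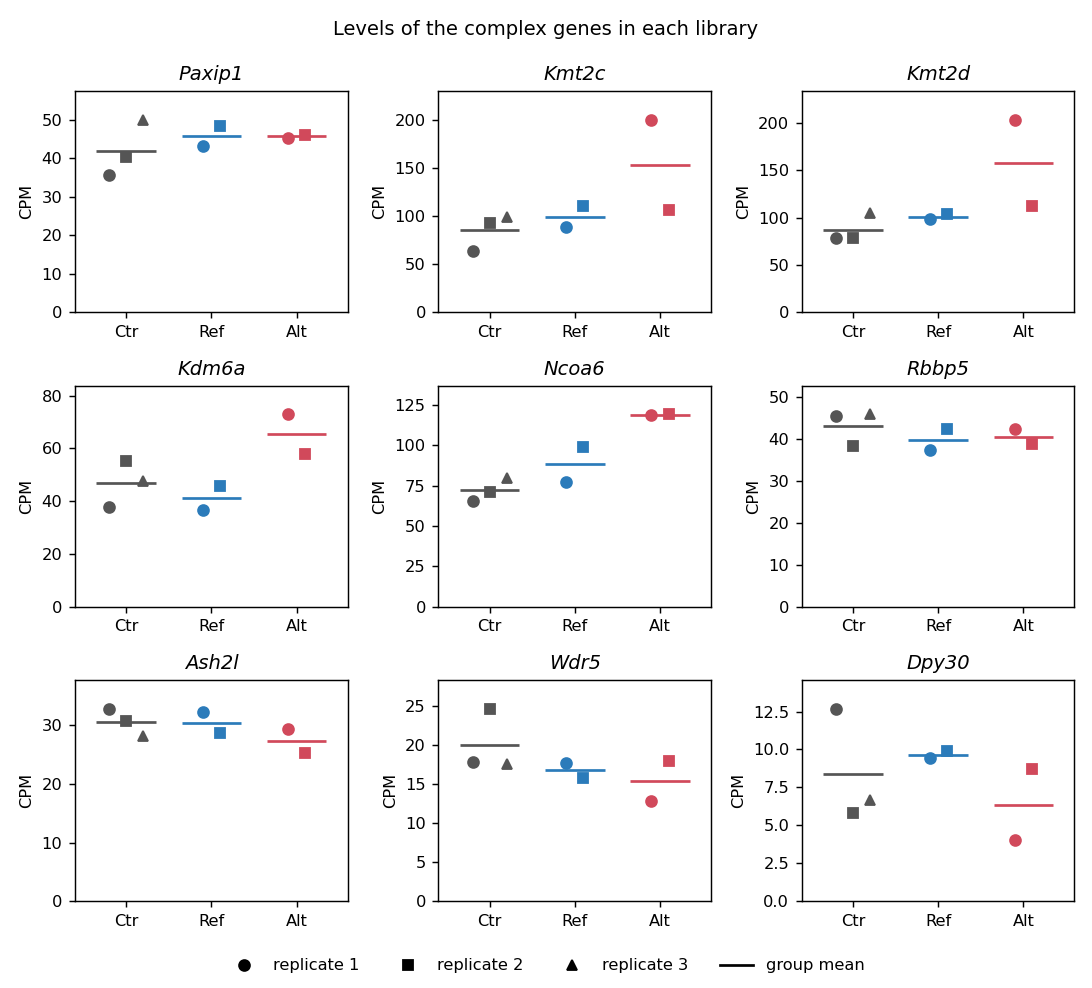
Level of each tested member in CPM in every library, by group, with a line at the group mean and a marker for the replicate number. Alt replicate 1 set the high Alt means of Kmt2c and Kmt2d, whereas Ncoa6 was at 119 CPM in both Alt libraries and Paxip1 in Ref and Alt stayed inside the Ctr range.

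The 4 core subunits shared with other H3K4 methyltransferases gave no call in either direction. Rbbp5 was at 45.4, 38.4 and 45.9 CPM in Ctr, 37.5 and 42.3 in Ref and 42.4 and 38.8 in Alt, and its log2 fold change for Alt versus Ctr was -0.09 (95% confidence interval -0.46 to 0.28). Ash2l, at 28.1 to 32.8 CPM in Ctr, 28.6 to 32.3 in Ref and 25.3 to 29.3 in Alt, had a log2 fold change of -0.16 (-0.56 to 0.24). The groups overlapped in CPM for both genes. Wdr5, which docks the methyltransferase on the core, gave -0.38 (-0.91 to 0.15), with 17.6 to 24.7 CPM in Ctr, 15.8 to 17.8 in Ref and 12.8 to 18.0 in Alt. Leaving out Alt replicate 1 moved the Wdr5 log2 fold change to -0.15, and leaving out Alt replicate 2 moved it to -0.64.

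Dpy30, the shortest of the tested genes of the complex, had the widest interval. It was at 12.7, 5.81 and 6.64 CPM in Ctr, 9.43 and 9.88 in Ref and 4.03 and 8.70 in Alt. Ctr replicate 1 was the highest library and Alt replicate 1 the lowest, and Alt replicate 2 lay between Ctr replicate 1 and the other Ctr libraries. Its log2 fold change was -0.39 (95% confidence interval -1.27 to 0.49), and the sign turned, to 0.06 and 0.04, without Alt replicate 1 or Ctr replicate 1. Without Alt replicate 2 it was -1.05.

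The 2 methyltransferases together were set against the sum of the 4 core subunits in TPM. This ratio was 0.227, 0.339 and 0.397 in Ctr, 0.354 and 0.394 in Ref and 0.951 and 0.431 in Alt. Both Alt libraries were above all others, Alt replicate 2 by less than the spread of Ctr. The summed TPM of the core subunits was 84.1 to 105.0 in Ctr, 83.3 to 93.4 in Ref and 73.6 to 78.8 in Alt and that of the 2 methyltransferases was 23.8, 28.5 and 36.2 in Ctr, 33.1 and 32.8 in Ref and 69.9 and 33.9 in Alt. Alt replicate 2 thus lay inside the Ctr range for the methyltransferases. Both Alt libraries lay below the Ctr range for the core subunits, as did Ref replicate 2. Of single genes, 23.7% had both Alt libraries below every Ctr library in TPM.

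Gene length moved with these results. Sorted by the length used for counting, the tested genes of the shortest decile had log2 fold changes with a median of -0.32 in Alt against Ctr, and those of the longest decile 0.35. Kmt2c (20291 bases), Kmt2d (19931) and Ncoa6 (9744) were in the longest decile and Kdm6a (8383) in the one below it, whose median was 0.18. Among genes of its own decile Kmt2d lay above 91.3%, Kmt2c above 91.0%, Ncoa6 above 84.2% and Kdm6a above 80.1%. The longest decile had a median length of 12065 bases, so Kmt2c and Kmt2d were ranked mostly against shorter genes. Paxip1 (10271 bases) and Ash2l (8969 bases) are about as long as Ncoa6 and Kdm6a but lay above only 25.8% and 17.4%. Dpy30 (1146 bases), Wdr5 (3596) and Rbbp5 (3930) lay at 47.8%, 28.3% and 54.1% of genes of their length.

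With a length curve for each library entered as offsets, 1 member, Ncoa6, remained higher in Alt than in Ctr at an unadjusted p under 0.05, and 7.30% of all genes were higher and 9.06% lower. Its log2 fold change was then 0.48 (95% confidence interval 0.18 to 0.79). Those of Kmt2c, Kmt2d and Kdm6a were 0.27 (-0.06 to 0.60), 0.27 (-0.06 to 0.60) and 0.29 (-0.07 to 0.65), and that of Paxip1 was -0.13 (-0.49 to 0.23). Without Alt replicate 1 the same correction left Ncoa6 alone once more, with 2.89% of all genes higher and 4.53% lower. What part of the differences of Kmt2c, Kmt2d and Kdm6a belongs to their length was not tested.

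**Figure D3:**
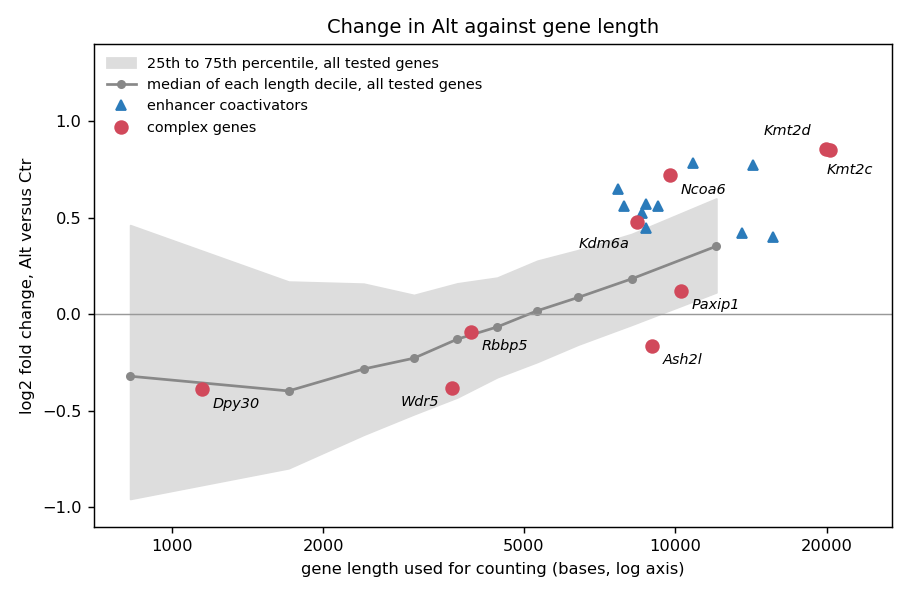
Log2 fold change for Alt versus Ctr against gene length in bases (log axis), with the median and the middle 50% of all tested genes in 10 length classes in grey, the members as circles and 10 enhancer coactivators as triangles. Ncoa6 and Kdm6a lay above the band at their length, Paxip1 in its lower part and Ash2l below it. Kmt2c and Kmt2d lay beyond the right end of the band, at 12065 bases, so no genes of like length are drawn for them.

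Against Ctr, the C allele gave no member at an unadjusted p under 0.05 in either direction, while 2.19% of all genes were higher and 0.945% lower, and no member and 0% of all genes passed an adjusted p of 0.05. Ncoa6 had the smallest p, 0.0959 unadjusted, with a log2 fold change of 0.29 (95% confidence interval -0.06 to 0.64). Kmt2c and Kmt2d gave 0.22 (-0.34 to 0.78) and 0.21 (-0.29 to 0.71), and Kdm6a gave -0.19 (-0.63 to 0.25). The core subunits lay between -0.25 for Wdr5 and 0.21 for Dpy30. Without Ref replicate 1 the log2 fold change of Ncoa6 was 0.46 and passed an unadjusted p of 0.05, as 1.22% of all genes did in the higher and 0.265% in the lower direction. Without Ref replicate 2 it was 0.09.

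The 2 alleles were then compared directly. Alt was higher than Ref for the same 4 members at an unadjusted p under 0.05, and 6.71% of all genes were higher and 8.83% lower. No member passed an adjusted p of 0.05, and 1 gene in all did, 0.0058% of those tested. The 3 comparisons share libraries in pairs, so they are not separate evidence. Kdm6a had the largest difference, 0.66 ± 0.22 (SE; unadjusted p = 0.0109, adjusted p = 0.236, edgeR), and Ref lay below Ctr for this gene on average. Kmt2d gave 0.65 ± 0.25, Kmt2c 0.63 ± 0.28 and Ncoa6 0.43 ± 0.18, with unadjusted p-values of 0.0255, 0.0472 and 0.0333 in the edgeR fit. In CPM the Alt and Ref libraries of Kmt2c overlapped, and those of Kmt2d, Kdm6a and Ncoa6 did not. Dpy30 was separated downward, with 4.03 and 8.70 CPM in Alt against 9.43 and 9.88 in Ref. The share of all genes separated between Alt and Ref was not counted. Fitting these 2 groups alone left Kmt2d and Kdm6a past an unadjusted p of 0.05, with 5.43% of all genes higher and 6.33% lower. The replicate number as a block left the same genes, with 3.76% higher and 5.25% lower. With length offsets Kdm6a alone remained, at 0.54 (95% confidence interval 0.14 to 0.94), where 7.42% of all genes were higher and 5.6% lower. Without Alt replicate 1 only Ncoa6 did, with 2.35% of all genes higher and 4.4% lower, and the differences of Kmt2c and Kmt2d were then 0.11 and 0.16. Without Ref replicate 1 no member did, with 1.3% of all genes higher and 2.88% lower.

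**Figure D4:**
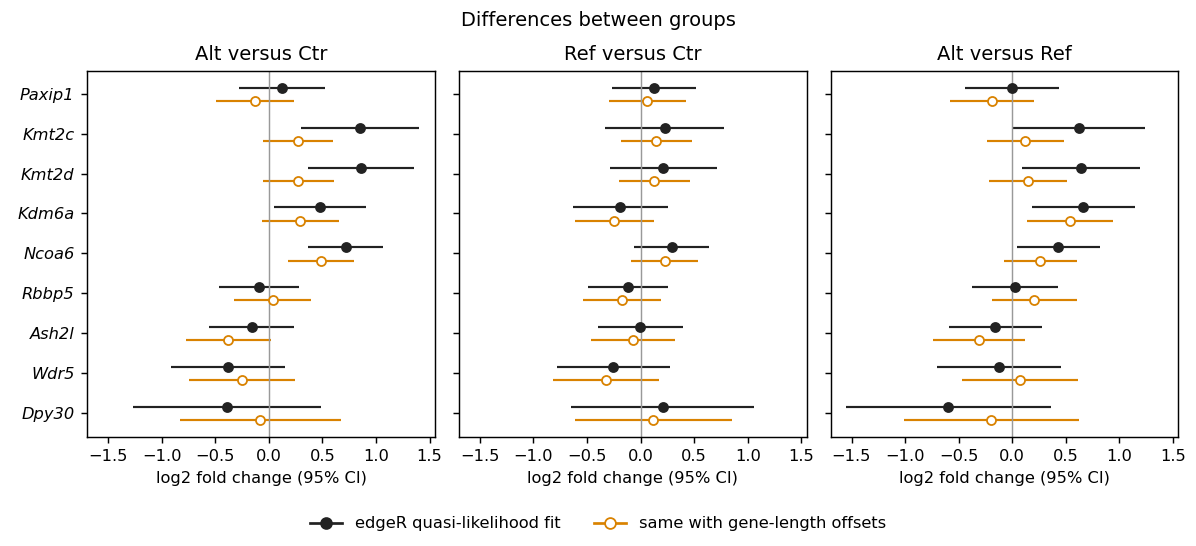
Log2 fold change with its 95% confidence interval for each tested member in the 3 comparisons, from edgeR's quasi-likelihood fit (filled) and from the same fit with gene-length offsets (open). In Alt versus Ctr the intervals of Kmt2c, Kmt2d, Kdm6a and Ncoa6 lay above 0, and with offsets that of Ncoa6 alone did; in Ref versus Ctr each interval held 0.

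Genes whose levels over the 7 libraries were closest to Paxip1 came from outside the complex. By the root mean square difference of log2 CPM, centred on Ctr, the nearest of 14491 protein-coding genes were Ankrd27 (0.0498), Scaf4 (0.0597), Ints6l (0.0622), Fgd1 (0.0686) and Rcor1 (0.0787), against a median of 0.382. Of the members Rbbp5 was nearest to Paxip1 at 0.231 and Dpy30 farthest at 0.589. Kmt2c, Kmt2d and Wdr5, at 0.450, 0.434 and 0.432, were also farther than the median gene.

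Other genes that write or read the same marks were followed by list. Of 12 further subunits of H3K4 methyltransferase complexes, 2 passed an unadjusted p of 0.05 as higher in Alt and 1 as lower, against Ctr, where 9.45% of all genes were higher and 10.3% lower. Kmt2a, the founding member of the family, had a log2 fold change of 0.85 ± 0.21 (SE) and Hcfc1, a scaffold of the SET1 and KMT2A complexes, 0.64 ± 0.17, while Bod1 gave -0.48 ± 0.18. With length offsets these were 0.35, 0.46 and -0.16, and Bod1 no longer passed (unadjusted p = 0.392, edgeR). Psip1 passed as lower in that fit (-0.28, unadjusted p = 0.0369, edgeR). Kmt2b, Setd1a and Setd1b, the remaining methyltransferases, gave 0.18 ± 0.17, 0.33 ± 0.28 and 0.03 ± 0.17, and with length offsets -0.06, 0.21 and -0.28, so that the sign of Kmt2b and Setd1b turned. Kmt2a was at 121, 143 and 174 CPM in Ctr, 161 and 174 in Ref and 327 and 199 in Alt, with Alt replicate 1 again the highest. Of 7 genes of H3K4 demethylases and their partners none passed in either direction, and their median was 0.16.

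Of 11 genes for writing, reading or removing H3K27 methylation, none was higher and 2 were lower at an unadjusted p under 0.05, against the same shares of 9.45% and 10.3% of all genes. These were Phf1, which guides PRC2 to chromatin, at -1.36 ± 0.41 (SE), and Rbbp4, a histone-binding subunit of PRC2 and other complexes, at -0.40 ± 0.16. Phf1 was at 6.35 to 9.48 CPM in Ctr, 5.38 and 11.6 in Ref and 3.90 and 2.23 in Alt, and both Alt libraries were below the others. Kdm6b, the demethylase related to Kdm6a, gave 0.48 ± 0.24 with an unadjusted p of 0.0675. The catalytic subunits Ezh1 and Ezh2 gave 0.10 ± 0.15 and 0.09 ± 0.50, and -0.04 and -0.00 with length offsets.

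The enhancer coactivators, which act with KMT2C and KMT2D at enhancers, were followed as a list of 10. The list was chosen with earlier results of these data known. Each of the 10 was higher in Alt than in Ctr at an unadjusted p under 0.05, as 9.45% of all genes, of any length, were. Log2 fold changes ran from 0.40 for Ncoa2 to 0.78 for Med13, with a median of 0.56. None passed an adjusted p of 0.05 in edgeR, and 5 did in DESeq2, among 1123 of 17254 genes in all. Med13, a subunit of the Mediator kinase module, was at 90.9, 109 and 112 CPM in Ctr, 109 and 132 in Ref and 222 and 135 in Alt. Ncoa3, a p160 coactivator, was at 34.1, 42.8 and 37.3 CPM in Ctr, 39.0 and 43.4 in Ref and 58.2 and 53.9 in Alt. For both genes the Alt libraries were the highest. Ep300 and Crebbp, the acetyltransferases of enhancers, gave 0.78 ± 0.24 (SE) and 0.42 ± 0.17. In Ref versus Ctr none of the 10 passed, 9 were above 0 and 1 below, and the median was 0.11, and in Alt versus Ref 4 were higher, compared with 6.71% of all genes. That count was 1 with length offsets, 1 without Alt replicate 1 and 0 without Ref replicate 1, where 7.42%, 2.35% and 1.3% of all genes were higher.

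These coactivators are long genes, of 7704 to 15642 bases. With length offsets 6 of the 10 remained higher at an unadjusted p under 0.05, compared with 7.30% of all genes, and the median was 0.35. Crebbp was then at 0.04 and Ncoa2 at -0.06, with its sign turned. Without Alt replicate 1 the count was 3, with Med12 and Ncoa3 among them, where 3.68% of all genes were higher, and without Ctr replicate 1 it was 5, where 5.69% were. With length offsets and without Alt replicate 1 it was 1 (Ncoa3), against 2.89% of all genes. Of 10 partners of PAXIP1 in the DNA damage response, 1 was higher, the kinase gene Atm at 1.10 ± 0.40 (SE), and none lower, a share near the 9.45% of all genes that were higher. Atm was at 8.89, 26.4 and 22.1 CPM in Ctr, 22.6 and 25.5 in Ref and 57.0 and 25.1 in Alt, so that Alt replicate 2 lay inside the Ctr range. Trp53bp1, which encodes 53BP1, gave 0.18 ± 0.18, and -0.23 with length offsets.

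**Figure D5:**
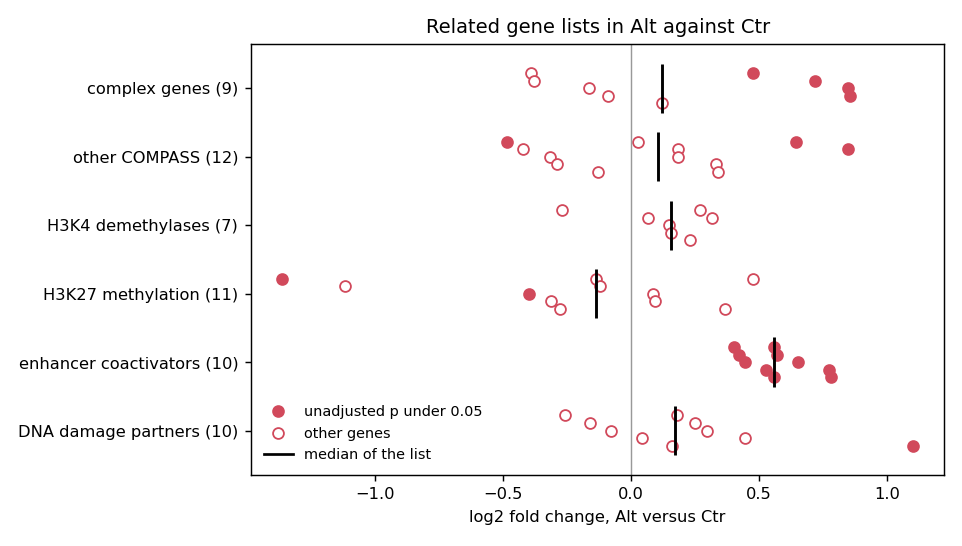
Log2 fold change for Alt versus Ctr of each tested gene of the complex and of the 5 related lists, with filled circles for an unadjusted p under 0.05 and a bar at the median of each list. Each of the 10 enhancer coactivators lay above 0 (Ncoa2 at -0.06 with length offsets, not drawn), with a median of 0.56, while the medians of the other lists lay between -0.14 and 0.17.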

How the data were processed

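RNA-seq of polyadenylated RNA from mouse PFC was taken from 1 deposited table. The authors deposited the read count of each gene in each of 7 libraries, without normalization, with TPM and FPKM values derived from these counts and the gene length. The submitters' processing notes list STAR, featureCounts and the build hg19, which is a human build and cannot be that of these mouse genes; the mouse build and the strand setting of the counting are not given in the sources used here. The kit marks the second strand.

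Counts were fitted in R 4.3.3 with edgeR 4.0.16 (TMM, filterByExpr by group, quasi-likelihood test on group means, all 7 libraries, Benjamini-Hochberg adjustment over 17254 genes, threshold 0.05). DESeq2 1.42.0 was an alternative, as were RLE factors, no filter, gene-length offsets (loess, span 0.3), a fit of the 2 groups compared, the replicate number as a block, and leaving out each library. For the TPM order the alternative was FPKM. Log2 CPM used a prior count of 2. Confidence intervals are at 95%, and floors cover counting error alone. The edgeR fit was tested on simulated counts.

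The named genes are the 10 members, the protein-coding genes within 500000 bases of Paxip1, up to 2 genes per list and direction with the smallest unadjusted p for Alt versus Ctr under 0.05, and the 5 profiles nearest to Paxip1. Kmt2b, Setd1a, Setd1b, Psip1, Kdm6b, Ezh1, Ezh2, Ep300, Crebbp, Ncoa2, Trp53bp1, Snap25 and Gad1 were added after their values were seen. So were the coactivators named under an alternative. The members and the lists were chosen with earlier results of these data known. The vector's transcript was not analysed here and the listed genes not named enter the counts and medians alone. No library was a repeat of another: within groups the chi-square of counts over genes was 18.6 to 58.0 times its degrees of freedom.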

Additional observations from a re-analysis of the deposited data

How the results depend on the processing

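The counts below are of the 9 tested members unless stated. At an adjusted p under 0.05, Alt versus Ctr gave 3 members (Kmt2c, Kmt2d, Ncoa6) with DESeq2 and 3 without the low-count filter, and Alt versus Ref gave 1 (Kmt2d) without the filter, where edgeR with the filter gave 0. Without the filter 1484 and 850 of 26895 genes passed in these comparisons. At an unadjusted p under 0.05, the gene-length correction left 1 member in Alt versus Ctr and 1 in Alt versus Ref, with a median log2 fold change of 0.12 in the latter, and together with leaving out Alt replicate 1 it left 1 and 0. A fit of the 2 groups compared gave 2 for Alt versus Ref, with 5.43% of all genes higher and 6.33% lower. Over the libraries left out in turn, the adjusted count was 0 to 3 for Alt versus Ctr and 0 to 3 for Alt versus Ref, the 3 coming without Alt replicate 2. In that setting 6 members passed unadjusted in Alt versus Ctr, with Wdr5 and Dpy30 lower, against 14.3% of all genes higher and 18.9% lower, and 3451 of 18848 genes passed an adjusted p of 0.05. In Alt versus Ref 4 members passed unadjusted, with Dpy30 lower, against 11.6% of all genes higher and 17.3% lower. The unadjusted count was 1 to 6, 0 to 1 and 0 to 4 for Alt versus Ctr, Ref versus Ctr and Alt versus Ref, and the median log2 fold change 0.0365 to 0.269, 0.0017 to 0.209 and -0.0496 to 0.124. The coactivators higher in Alt numbered 6 with the length correction, 3 to 10 over the libraries left out and 1 with both changes. These coactivator counts, the joint change and the alternatives of the Paxip1 order were chosen after seeing the data. Between 4 and 5 of 9 members held their place in the TPM order when a Ctr library was left out. The Paxip1 slope was 0.0130 to 0.135 over the libraries left out and -0.0556 with the length correction (p = 0.481, exact permutation test). The cause of these shifts was not tested.

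Signs turned for some values. With the length correction Paxip1 was at -0.13 and Rbbp5 at 0.0353 for Alt versus Ctr, and Wdr5 at 0.0733 for Alt versus Ref, and among named genes of the lists Ncoa2, Kmt2b, Setd1b, Ezh1, Ezh2 and Trp53bp1 turned below 0 for Alt versus Ctr. Paxip1 for Alt versus Ref was at 0.0329 with DESeq2, 0.0329 with RLE factors and 0.0044 in the fit of 2 groups, and Ash2l for Ref versus Ctr at 0.0041 without the filter. With a library left out, Dpy30 ranged from -1.05 to 0.0559 for Alt versus Ctr, Ash2l from -0.0894 to 0.0730 for Ref versus Ctr, and Paxip1 from -0.0952 to 0.0906, Rbbp5 from -0.0708 to 0.124 and Wdr5 from -0.380 to 0.108 for Alt versus Ref. Libraries of the same replicate number did not deviate together (correlations of -0.10 to 0.07), so the numbers were not taken to pair the samples. With the replicate block 3 members passed unadjusted in Alt versus Ctr (6.54% of all genes higher, 6.1% lower) and 2 in Alt versus Ref (3.76% and 5.25%), and the median for Alt versus Ctr was 0.27. Of the coactivators 1 passed as higher in Alt versus Ref with the block. With 2 libraries each in Ref and Alt, the width of the intervals limits what can be seen, most for Dpy30, which had the fewest counts of the tested members.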
